A study of Mus musculus with 20 samples.

Results

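Toll-like receptors sense microbial products and molecules released by damaged tissue, and they are carried mostly by macrophages, neutrophils, dendritic cells and B cells. The 10 genes described here were the rows of the expression table named Tlr1, Tlr2, Tlr4, Tlr6, Tlr7, Tlr8, Tlr9, Tlr13, Myd88 and Ly96, which is 10 of the 14793 genes measured. They are 8 Toll-like receptors other than TLR3, the adaptor Myd88, and Ly96, which encodes the MD-2 protein that binds lipopolysaccharide together with TLR4. TLR1, TLR2, TLR4 and TLR6 sit at the cell surface, where TLR2 pairs with TLR1 or TLR6 to bind bacterial lipopeptides. TLR7, TLR8, TLR9 and TLR13 sit in endosomes. TLR7 binds single-stranded RNA, TLR9 binds unmethylated CpG DNA, and TLR13, a receptor that mice have and humans lack, binds bacterial ribosomal RNA. All 8 receptors signal through MyD88 to NF-kB and to inflammatory cytokine genes, and in osteoarthritic joints TLR2 and TLR4 are studied as sensors of cartilage fragments.

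RNA was sequenced in bulk from the right knee joints of 20 male C57BL/6Nci mice, 12 weeks old at the start, with 5 joints in each of 4 groups. All 4 groups had surgery that destabilized the medial meniscus, a model of osteoarthritis, and all had a needle placed in the joint at weeks 3 and 5: with no cells (CTRL), with unstimulated adipose-derived mesenchymal stromal cells (MSC), with stromal cells exposed to the TLR3 agonist pIC (TLR3-MSC), or with stromal cells exposed to the STING agonist 2′3′cGAMP (STING-MSC). Each injection held 250000 cells, from a pool of donor mice, that had been stimulated for 2 h at 10 µg/mL where they were stimulated. Collection is placed at 8 weeks after surgery in the methods and 24 h after injection elsewhere, and the tissue held cartilage, synovium, capsule and subchondral bone. There was no joint without surgery, and CTRL joints received no vehicle, so injection of cells and injection of fluid cannot be told apart. In such tissue, fewer cells of a type and less RNA per cell cannot be told apart either.

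Between 27955496 and 52529972 reads per joint were recovered from the deposited values, and a member gene had between 89 reads (Ly96) and 2903 reads (Tlr2) in a joint. MSC replicate 5 stood apart, with 296 genes at 0 against 0 to 97 in the other joints, so most differences that rest on MSC, in the fit with no covariate, are also given without it. TLR3-MSC replicate 4 and CTRL replicate 1 stood apart by their summed epidermis markers, at 18854 and 4928 normalized counts against 19.2 to 890 in the other 18 joints. Marker genes of macrophages, neutrophils, B cells, cartilage, bone, synovial fibroblasts and muscle were present in all 4 groups. The summed level of 12 neutrophil and marrow granulocyte markers ranged from 402230 to 718790 normalized counts in CTRL, 576330 to 980380 in MSC, 539380 to 833820 in TLR3-MSC and 575200 to 896810 in STING-MSC. The summed level of 10 macrophage markers ranged from 112210 to 149800 in CTRL, 144030 to 199860 in MSC, 139760 to 170110 in TLR3-MSC and 132550 to 198090 in STING-MSC.

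None of the 10 genes passed a false discovery rate (FDR) of 0.05 over all genes in any comparison by limma, the main test (0.00676% of all genes did for MSC against CTRL and 0.0473% for all 3 cell-cell-injected groups against CTRL), which compared log2(normalized count + 1) between groups over all 20 joints. At an unadjusted p of at most 0.05, 3 of the 10 were higher in MSC than in CTRL (Tlr2, Tlr8 and Myd88), where 5.64% of all genes were higher and 8.55% differed in either direction at that p. Tlr2 and Tlr8 were the 2 higher in TLR3-MSC than in CTRL, against 2.68% of all genes (3.58% in either direction), and Tlr8 and Tlr13 were the 2 higher in STING-MSC than in CTRL, against 6.54% (12.2% in either direction). When the mean of the 3 cell-injected groups was set against CTRL, 4 genes had higher values at that p (Tlr2, Tlr8, Tlr13 and Myd88), against 6.37% of all genes (9.23% in either direction), and by an F test over all 4 groups 3 genes passed it (Tlr2, Tlr8 and Tlr13), against 6.42%. None of the 10 was lower than CTRL at that p. The 3 comparisons with CTRL share the same 5 control joints and are not independent of each other.

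Across the 10 genes the median log2 fold change was 0.10 in MSC, 0.14 in TLR3-MSC and 0.17 in STING-MSC against CTRL, beside -0.04, -0.01 and 0.01 over all genes. In the same order, 7, 8 and 8 of the 10 had a log2 fold change above 0. Between the cell-injected groups, Tlr2 alone reached an unadjusted p of 0.05 or less, with a lower level in STING-MSC than in MSC, where 2.17% of all genes were lower and 4.94% differed in either direction at that p. None of the 10 reached it between TLR3-MSC and MSC (3.88% of all genes in either direction) or between STING-MSC and TLR3-MSC (2.57%). By DESeq2 on the recovered reads, Tlr2 in MSC against CTRL (FDR 0.0428; 0.712% of all genes), Tlr8 in STING-MSC against CTRL (FDR 0.0492; 0.596%) and Tlr8 in all cell-injected groups against CTRL (FDR 0.0154; 0.718%) were past an FDR of 0.05, the percentages being the share of all genes past it in that comparison, and by edgeR on the same reads none of the 10 was.

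**Figure D1:**
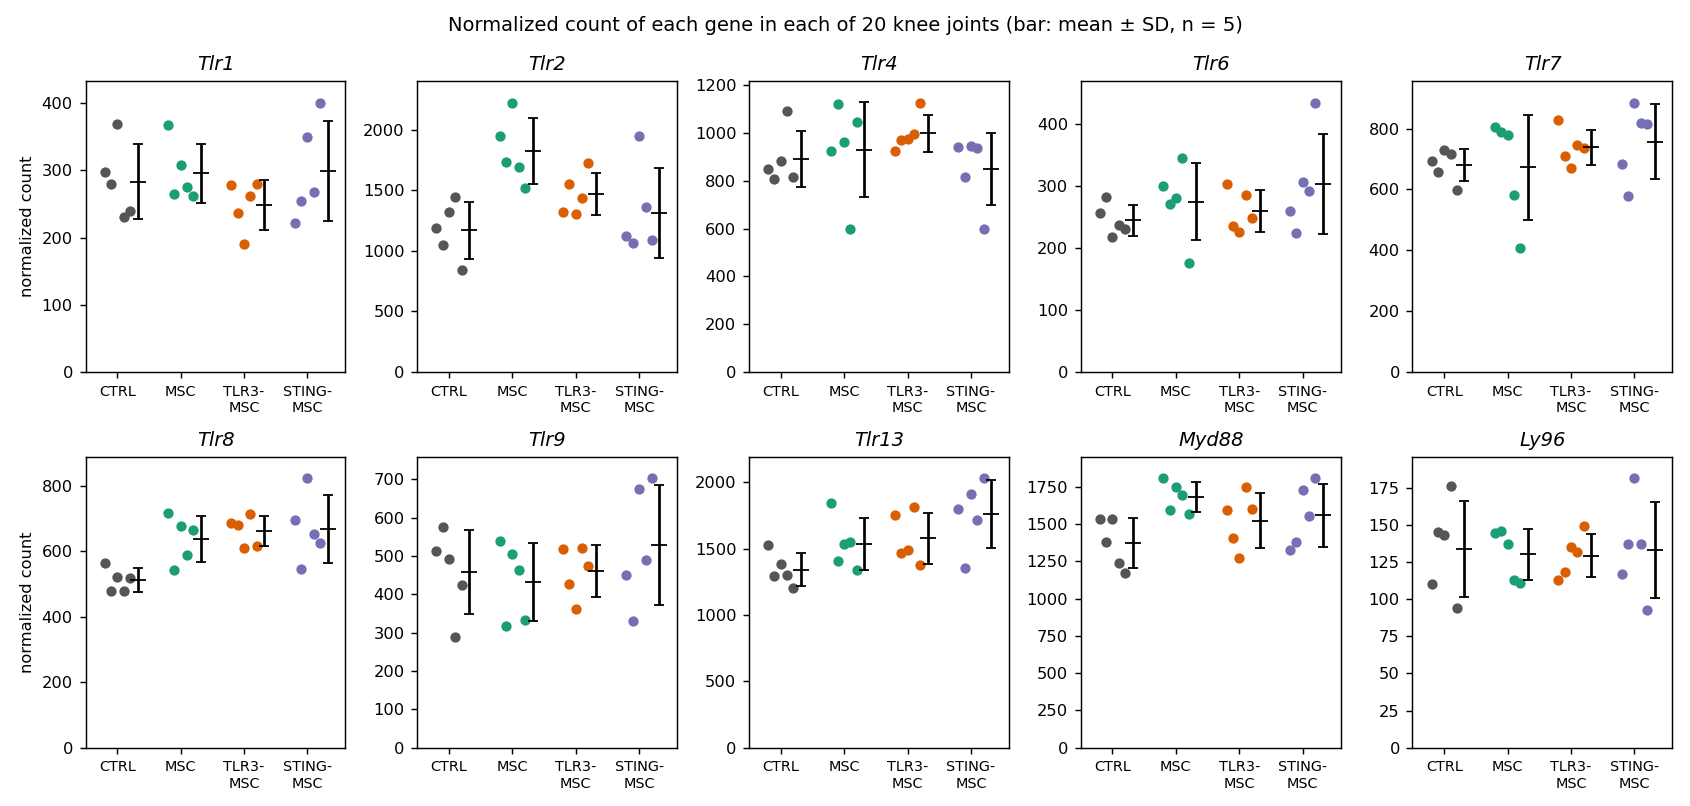
Normalized count (y axis, from 0) of each of the 10 genes in each joint, by group (x axis; CTRL, MSC, TLR3-MSC and STING-MSC, 5 joints each); points are joints, and the bar beside them is the mean ± SD. All 5 MSC joints lie above all 5 CTRL joints for Tlr2 and Myd88, as they do for 0.737% of all genes. All 5 TLR3-MSC joints lie above all 5 CTRL joints for Tlr8, as they do for 0.575%, while the groups overlap for Ly96.

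The promoters of the 4 genes that reached an unadjusted p of 0.05 are shown because these are the genes the comparisons turn on. They are the 250 bases before the transcription start from RefSeq on GRCm38.p6, an older build than the GRCm39 of the counts, written along the gene's own strand with the matches to 5 short motifs in capitals.
Tlr2, chr3:83841609-83841858, minus strand: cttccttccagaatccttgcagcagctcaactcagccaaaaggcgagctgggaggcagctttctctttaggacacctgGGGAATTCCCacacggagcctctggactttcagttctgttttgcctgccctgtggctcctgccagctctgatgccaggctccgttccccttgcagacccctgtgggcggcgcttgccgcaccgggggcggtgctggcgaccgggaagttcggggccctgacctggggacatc
Tlr8, chrX:167264330-167264579, minus strand: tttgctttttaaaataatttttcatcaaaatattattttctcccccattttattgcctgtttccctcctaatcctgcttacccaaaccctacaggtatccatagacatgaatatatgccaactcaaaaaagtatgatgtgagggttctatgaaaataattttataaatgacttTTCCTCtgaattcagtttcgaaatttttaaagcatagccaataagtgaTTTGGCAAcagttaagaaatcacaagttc
Tlr13, chrX:106143025-106143274, plus strand: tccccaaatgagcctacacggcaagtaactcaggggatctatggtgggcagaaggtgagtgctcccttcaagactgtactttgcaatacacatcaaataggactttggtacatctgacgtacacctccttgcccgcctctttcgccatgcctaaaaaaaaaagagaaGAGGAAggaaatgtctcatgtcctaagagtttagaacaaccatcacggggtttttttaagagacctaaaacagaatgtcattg
Myd88, chr9:119340019-119340268, minus strand: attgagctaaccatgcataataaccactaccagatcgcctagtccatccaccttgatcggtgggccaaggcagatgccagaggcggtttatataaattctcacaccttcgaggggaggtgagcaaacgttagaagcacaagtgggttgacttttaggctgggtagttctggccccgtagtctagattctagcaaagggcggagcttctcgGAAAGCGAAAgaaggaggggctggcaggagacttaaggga

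The motifs searched on both strands were GAGGAA (a core of PU.1 sites), a GAAA repeat with 2 bases of any kind between the copies (as in interferon response elements), GGGA and CC with 4 bases of any kind between them (a loose NF-kB form), TGANTCA (AP-1) and TTGCNNAA (C/EBP). The Tlr2 promoter held a match to the NF-kB form on both strands from 172 to 163 bases before the start, which 17.6% of 32851 promoters of that length hold at least once. The Tlr8 promoter held GAGGAA on the opposite strand (77 to 72 bases before the start) and TTGCNNAA on the opposite strand (29 to 22 bases before it), found in 23.3% and 9.56% of promoters. The Tlr13 promoter held GAGGAA (83 to 78 bases before the start), and the Myd88 promoter held the GAAA repeat (40 to 31 bases before it), which 2.98% of promoters hold. The capitals did not overlap each other in these 4 promoters, and no motif of the 5 was shared by all 4. Promoters were matched for 7 of the 10 genes, and Tlr4, Tlr7 and Ly96 had no entry. Such a match describes letters in a window and not a bound site.

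Tlr2 (ENSMUSG00000027995; GRCm39 chromosome 3, 83743579 to 83749075, minus strand), the shared partner of the lipopeptide receptors, had the largest difference of the 10. Its normalized count was 1187, 1051, 1322, 1443 and 843 in the CTRL joints and 1945.5, 1734, 2224, 1689 and 1519 in the MSC joints. It was 1324, 1553, 1302, 1439.7 and 1725 in the TLR3-MSC joints and 1119.8, 1062, 1945, 1361 and 1091 in the STING-MSC joints. Every MSC joint was thus above every CTRL joint, a separation in this direction that 0.737% of all genes had, while the TLR3-MSC joints overlapped both and 4 of 5 STING-MSC joints lay within the CTRL range.

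The mean of Tlr2 was 1822 ± 271 in MSC and 1169 ± 234 in CTRL (SD, n = 5 each), a log2 fold change of 0.65 (SE 0.16, 1.57-fold, 95% interval 0.31 to 1.00; limma p = 0.000839, FDR 0.185; exact two-sided permutation p = 0.00794, the smallest that 5 joints against 5 allow). Without MSC replicate 5 it was 0.71 (limma FDR 0.145). For TLR3-MSC against CTRL the log2 fold change was 0.35 (SE 0.16; limma p = 0.0493, FDR 1.00; exact permutation p = 0.0635), and for STING-MSC against CTRL it was 0.15 (SE 0.16; limma p = 0.358). The TLR3-MSC value rests on single joints: it lost its unadjusted p of 0.05 in 12 of the 20 fits that left out 1 joint, with log2 fold changes between 0.23 (without CTRL replicate 5) and 0.43. Those without the joints high in epidermis markers were among the 12, at 0.36 without CTRL replicate 1 and 0.35 without TLR3-MSC replicate 4. Tlr2 was the only gene of the 10 that differed between cell-injected groups at that p, at -0.50 in STING-MSC against MSC (SE 0.16, 0.709-fold; limma p = 0.00702, FDR 0.824; exact permutation p = 0.0476). In that comparison 4 of 5 STING-MSC joints were below every MSC joint, replicate 3 (1945) being the exception, and without MSC replicate 5 the value was -0.56 (limma FDR 0.671). TLR3-MSC lay between, at -0.31 against MSC (SE 0.16; limma p = 0.0777; exact permutation p = 0.0476), and at -0.37 without MSC replicate 5 (limma FDR 0.7099), then at an unadjusted p below 0.05.

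For the partners of TLR2 no comparison reached an unadjusted p of 0.05. Tlr1 (ENSMUSG00000044827; chromosome 5, 65082022 to 65090907, minus strand) averaged 283 ± 55.6 in CTRL, 296 ± 43.9 in MSC, 249 ± 37.2 in TLR3-MSC and 299 ± 73.9 in STING-MSC (SD, n = 5 each). The smallest p for Tlr1 was for TLR3-MSC against MSC, at a log2 fold change of -0.25 (SE 0.17; limma FDR 0.978; exact permutation p = 0.119), with 3 of 5 TLR3-MSC joints below every MSC joint, and it was -0.29 without MSC replicate 5 and -0.16 without TLR3-MSC replicate 3. Tlr6 (ENSMUSG00000051498; chromosome 5, 65109374 to 65117441, minus strand) averaged 245 ± 25.5 in CTRL, 275 ± 62.0 in MSC, 259.6 ± 33.2 in TLR3-MSC and 303 ± 80.0 in STING-MSC. Its lowest and highest joints were MSC replicate 5 (176) and STING-MSC replicate 5 (435). The log2 fold change of Tlr6 in STING-MSC against CTRL was 0.28 (SE 0.17; limma FDR 0.527; exact permutation p = 0.127), and without STING-MSC replicate 2 it was 0.38 (limma FDR 0.328), then at an unadjusted p below 0.05, while without replicate 5 of that group it was 0.14 (limma FDR 0.896). Without MSC replicate 5, Tlr6 moved from 0.14 to 0.29 in MSC against CTRL and from 0.14 to -0.01 in STING-MSC against MSC. Tlr1 and Tlr6 lie 18466 bases apart and share sequence: 13.1% of the 50-base windows and 4.13% of the 150-base windows of Tlr1 transcripts also occur in Tlr6, so reads from the shared stretch may have been assigned to either gene or dropped, which was not tested.

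For the lipopolysaccharide receptor, Tlr4 (ENSMUSG00000039005; chromosome 4, 66745821 to 66848522, plus strand) and its partner Ly96 (ENSMUSG00000025779; chromosome 1, 16758275 to 16779836, plus strand), no comparison reached an unadjusted limma p of 0.05. Tlr4 averaged 891 ± 118 in CTRL, 931 ± 200.1 in MSC, 999 ± 76.8 in TLR3-MSC and 848 ± 151 in STING-MSC (SD, n = 5 each). The lowest Tlr4 joints were MSC replicate 4 (600.0) and STING-MSC replicate 5 (597), and the next was at 807. These joints also had the lowest summed synovial fibroblast markers, at 21302 and 46892 normalized counts against 133570 to 558900 in the other 18, and the part of these cells in the Tlr4 level was not tested. The smallest p for Tlr4 was for STING-MSC against TLR3-MSC, at -0.25 (SE 0.15; limma p = 0.113, FDR 0.890; exact permutation p = 0.0317), and it was -0.13 without STING-MSC replicate 5 (limma FDR 0.994). Ly96 averaged 134 ± 32.3 in CTRL, 130.3 ± 17.1 in MSC, 129 ± 14.4 in TLR3-MSC and 133 ± 32.6 in STING-MSC. Its 3 log2 fold changes against CTRL lay between -0.02 and -0.01, that of TLR3-MSC being -0.02 with a 95% interval of -0.40 to 0.36 (exact permutation p = 0.905), so a change of about that width in either direction was not detectable with 5 joints a group.

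Tlr8 (ENSMUSG00000040522; chromosome X, 166025692 to 166047326, minus strand), an endosomal receptor, was higher than in CTRL at an unadjusted p below 0.05 in each of the 3 cell-injected groups. Its normalized count was 564, 477, 522, 478 and 518 in the CTRL joints and 716, 543, 677, 589 and 665 in the MSC joints. It was 685, 680.05, 609, 714 and 617 in the TLR3-MSC joints and 696, 544, 823, 652 and 625 in the STING-MSC joints. All 5 TLR3-MSC joints were above every CTRL joint, which 0.575% of all genes showed in that comparison, and in MSC and in STING-MSC 4 of 5 joints were, replicate 2 of each falling below the highest CTRL joint.

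The log2 fold change of Tlr8 against CTRL was 0.31 in MSC (SE 0.10, 1.24-fold; limma p = 0.00636, FDR 0.330; exact permutation p = 0.0159). It was 0.37 in TLR3-MSC (SE 0.10, 1.29-fold; limma p = 0.00187, FDR 1.00; exact permutation p = 0.00794) and 0.37 in STING-MSC (SE 0.10, 1.295-fold; limma p = 0.00168, FDR 0.289; exact permutation p = 0.0159). Over the 3 cell-injected groups together it was 0.35 (SE 0.08, 95% interval 0.18 to 0.53; limma FDR 0.163). Between the cell-injected groups the log2 fold changes of Tlr8 were between 0.00 and 0.06, with 95% intervals from -0.15 to 0.27 for STING-MSC against MSC and from -0.16 to 0.27 for TLR3-MSC against MSC. Without MSC replicate 5 the MSC value was 0.30 (limma FDR 0.304). Without the joints high in epidermis markers the TLR3-MSC value was 0.40 (CTRL replicate 1 left out; limma FDR 0.513) and 0.34 (TLR3-MSC replicate 4 left out; limma FDR 1.00).

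Tlr7 (ENSMUSG00000044583; chromosome X, 166087925 to 166113555, minus strand), the receptor for single-stranded RNA, lies 40598 bases from Tlr8, and no comparison reached an unadjusted p of 0.05. Tlr7 averaged 679 ± 52.6 in CTRL, 672 ± 173 in MSC, 738 ± 57.4 in TLR3-MSC and 756 ± 123 in STING-MSC (SD, n = 5 each). The MSC joints spanned the lowest value of all 20 (409, replicate 5) and 3 values of 779 to 805. The smallest p for Tlr7 was for STING-MSC against MSC, with a log2 fold change of 0.20 (SE 0.16; limma FDR 0.938; exact permutation p = 0.397), and without MSC replicate 5 this was 0.03. Whether Tlr7 and Tlr8 differ in their response was not tested. Tlr9 (ENSMUSG00000045322; chromosome 9, 106099797 to 106104083, plus strand), the CpG DNA receptor, had the largest SE of the 10 on the log2 scale, with means of 459 ± 109 in CTRL, 432 ± 101 in MSC, 460.2 ± 67.4 in TLR3-MSC and 529 ± 157 in STING-MSC. Its highest joints were STING-MSC replicates 5 (702) and 3 (674), and its smallest p was for STING-MSC against MSC, at 0.27 (SE 0.22; limma FDR 0.938; exact permutation p = 0.349). Single joints moved that value by over 1.5 times: it was 0.43 without STING-MSC replicate 2, and 0.17, 0.17 and 0.15 without MSC replicate 2, STING-MSC replicate 3 and STING-MSC replicate 5. Without MSC replicate 5 it was 0.19.

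Tlr13 (ENSMUSG00000033777; chromosome X, 105186810 to 105204100, plus strand), the receptor for bacterial ribosomal RNA, had 1527.5, 1294, 1384, 1300.5 and 1199.5 normalized counts in the CTRL joints and 1798, 1356.5, 1911, 1714 and 2029 in the STING-MSC joints. It had 1843, 1406, 1532, 1550.3 and 1336.5 in the MSC joints and 1754, 1466, 1485, 1811.5 and 1377 in the TLR3-MSC joints. In STING-MSC 4 of 5 joints were above every CTRL joint, replicate 2 being the exception, and the MSC and TLR3-MSC joints overlapped both of these groups. The log2 fold change in STING-MSC against CTRL was 0.38 (SE 0.11, 1.31-fold; limma p = 0.00277, FDR 0.290; exact permutation p = 0.0238). It was 0.23 in TLR3-MSC (SE 0.11; exact permutation p = 0.0556; below an unadjusted limma p of 0.05 without MSC replicate 5) and 0.19 in MSC (SE 0.11; exact permutation p = 0.0714), and 0.27 over the 3 cell-injected groups (SE 0.09; limma FDR 0.335). STING-MSC against MSC was 0.20 (SE 0.11; exact permutation p = 0.167), with a 95% interval of -0.04 to 0.43, and 0.15 without MSC replicate 5.

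Myd88 (ENSMUSG00000032508; chromosome 9, 119165000 to 119170478, minus strand), the adaptor that all 8 receptors use, had 1533, 1379.7, 1532, 1237 and 1173 normalized counts in the CTRL joints and 1805.5, 1593, 1750.1, 1695 and 1568.5 in the MSC joints. It had 1591, 1405, 1269.5, 1750.4 and 1597 in the TLR3-MSC joints and 1323, 1379.7, 1728, 1550.5 and 1806 in the STING-MSC joints. All 5 MSC joints were above every CTRL joint, a separation in this direction that 0.737% of all genes had. In each of the stimulated groups 3 of 5 joints were above every CTRL joint. The log2 fold change was 0.30 in MSC (SE 0.10, 1.23-fold; limma p = 0.00961, FDR 0.359; exact permutation p = 0.00794), 0.15 in TLR3-MSC (SE 0.10; limma p = 0.166) and 0.18 in STING-MSC (SE 0.10; limma p = 0.0986) against CTRL. Without MSC replicate 5 the MSC value was 0.33 (limma FDR 0.279). Exons of Myd88 share 628 bases with Acaa1a on the other strand, and since it is not stated whether the counting used strand, reads there cannot be assigned to either gene.

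**Figure D2:**
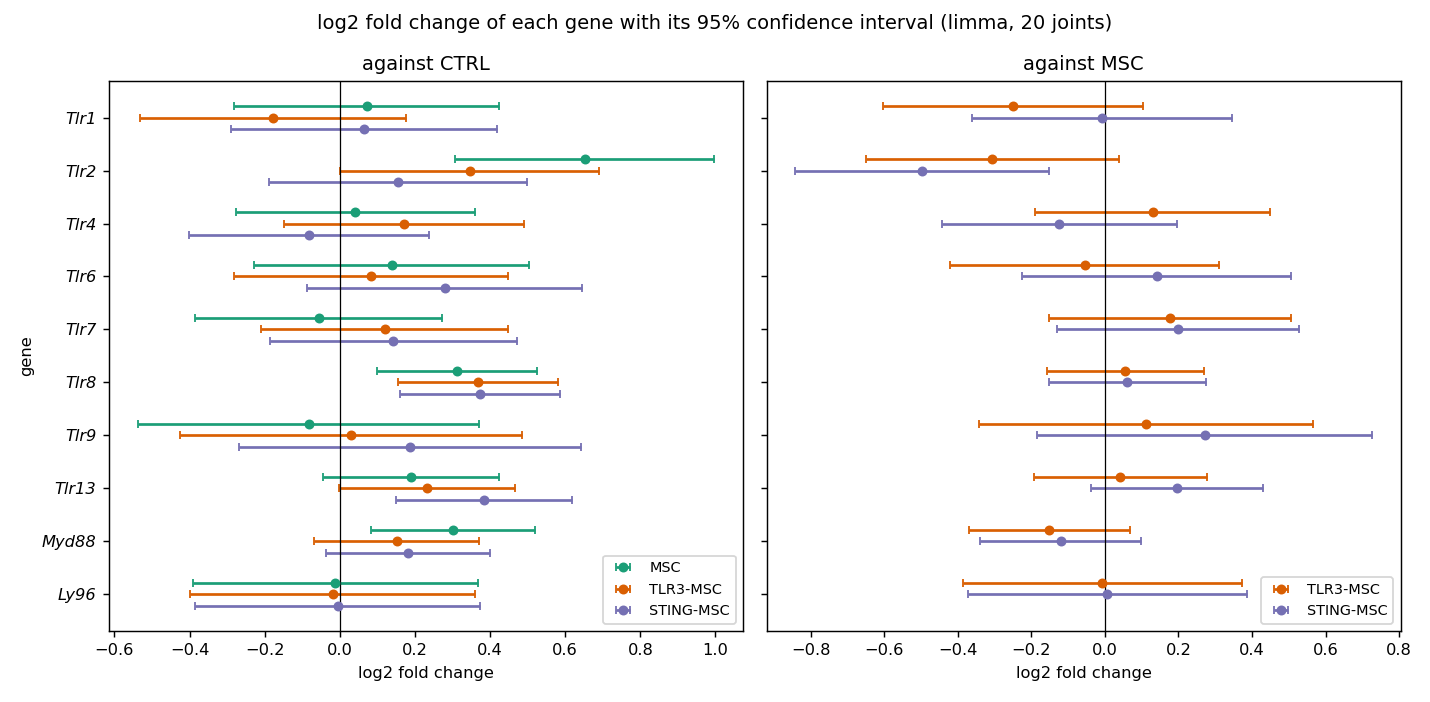
log2 fold change (x axis) of each of the 10 genes (y axis) with its 95% confidence interval from limma, against CTRL (left; MSC, TLR3-MSC and STING-MSC) and against MSC (right; TLR3-MSC and STING-MSC). For Tlr8 all 3 intervals against CTRL lie above 0, for Tlr2 that of MSC runs from 0.31 to 1.00, and against MSC only that of Tlr2 in STING-MSC lies wholly below 0.

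Levels of different genes were compared per kilobase of annotated exon, as normalized count per kb averaged over the 20 joints. Myd88 had the highest level of the 10 (394 ± 49.9, SD, n = 20), followed by Tlr13 (328 ± 50.04) and Tlr2 (263 ± 64.2). Myd88 was above Tlr13 in 19 of 20 joints, Tlr13 above Tlr2 in 17 and Tlr2 above the next gene in 19. Tlr9 (135 ± 31.7), Tlr7 (134 ± 20.8), Tlr4 (131 ± 20.5) and Tlr8 (122 ± 17.8) lay close together by these lengths. By the same lengths, neighbours in this stretch did not differ beyond their spread, Tlr9 being above Tlr7 in 11 of 20 joints and Tlr7 above Tlr4 in 10. Ly96 (107 ± 19.0), Tlr1 (83.4 ± 16.0) and Tlr6 (55.7 ± 11.3) were the lowest, with Tlr1 above Tlr6 in all 20 joints. The 4 receptors outside the set were lower per kb than Tlr6 on average, namely Tlr12 (47.9 ± 13.7), Tlr3 (34.8 ± 9.91), Tlr5 (32.4 ± 5.83) and Tlr11 (6.99 ± 3.23).

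**Figure D3:**
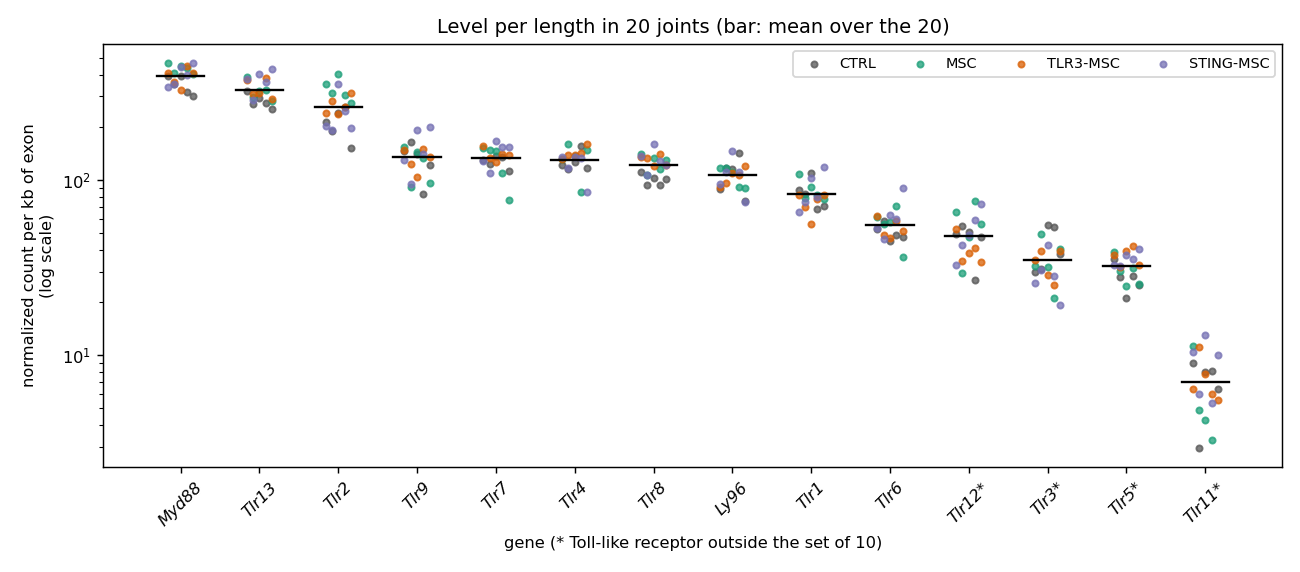
Normalized count per kilobase of exon (y axis, log scale) of the 10 genes and of 4 other Toll-like receptors (x axis, marked with an asterisk) in 20 joints coloured by group; the bar is the mean over the 20 joints, and 1 joint with Tlr11 at 0 (MSC replicate 5) is not drawn. Myd88, Tlr13 and Tlr2 lie above 7 genes between 55.7 and 135 on average.

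To see how the genes varied from joint to joint within groups, each was correlated with the summed level of the macrophage, neutrophil and B cell marker lists after subtracting group means (n = 20 joints, 40 relations, permutation within groups, Benjamini-Hochberg adjusted). Lyz2, which neutrophils also make, held 58.5% to 73.8% of the macrophage sum, so that list was also used without Lyz2, a choice made after seeing the data. Tlr9 varied most closely with the B cell markers (r = 0.87, rho = 0.92, permutation adjusted p = 0.000667 and 0.0004) and the neutrophil markers (r = 0.85, rho = 0.85, permutation adjusted p = 0.000667 and 0.0005). Without the 2 joints farthest from the median marker level these r were 0.92 and 0.87. The neutrophil list was also closely followed by Tlr13 (r = 0.80, rho = 0.80, permutation adjusted p = 0.000667 and 0.0012, r = 0.76 without 2 joints), Myd88 (r = 0.74, rho = 0.74, permutation adjusted p = 0.00173 and 0.00229, r = 0.72 without 2 joints) and Tlr6 (r = 0.74, rho = 0.81, permutation adjusted p = 0.0011 and 0.0005, r = 0.74 without 2 joints). Tlr1 followed the B cell list (r = 0.78, rho = 0.79, permutation adjusted p = 0.00211 and 0.0025, r = 0.79 without 2 joints), as did Myd88 (r = 0.76, rho = 0.77, permutation adjusted p = 0.00128 and 0.00229, r = 0.78 without 2 joints). Less closely, that list was followed by Tlr13 (r = 0.62, rho = 0.70, permutation adjusted p = 0.03 and 0.00728, r = 0.74 without 2 joints) and Tlr6 (r = 0.55, rho = 0.68, permutation adjusted p = 0.0941 and 0.0134, r = 0.63 without 2 joints). Tlr1 had r = 0.57 with the neutrophil list (rho = 0.61, permutation adjusted p = 0.0358 and 0.0218, r = 0.57 without 2 joints).

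Tlr4 and Ly96 had another pattern among the lists correlated, which did not include synovial fibroblast markers. MSC replicate 4, the joint lowest in those markers (21302 normalized counts), was left out of the r without 2 joints for the list without Lyz2. How closely Tlr4 and Ly96 vary with synovial fibroblast markers was not tested. With the 9 macrophage markers other than Lyz2, Tlr4 had r = 0.75 (rho = 0.61, permutation adjusted p = 0.0118 and 0.0282, r = 0.61 without 2 joints) and Ly96 had r = 0.63 (rho = 0.58, permutation adjusted p = 0.0269 and 0.0446, r = 0.57 without 2 joints), while with neutrophil markers their r were -0.50 and -0.14 (permutation adjusted p = 0.0877 and 0.643; rho = -0.43 and -0.14, permutation adjusted p = 0.13 and 0.641). Tlr13 had the highest r with the full macrophage list (r = 0.73, rho = 0.65, permutation adjusted p = 0.00655 and 0.0143, r = 0.67 without 2 joints), which was 0.11 without Lyz2. Myd88 had r = 0.60 with it (rho = 0.61, permutation adjusted p = 0.0269 and 0.019, r = 0.55 without 2 joints), which was -0.02 without Lyz2. Tlr2 and Tlr7 also followed the full macrophage list (r = 0.72, rho = 0.75, permutation adjusted p = 0.0118 and 0.00347, and r = 0.70, rho = 0.76, permutation adjusted p = 0.00836 and 0.0005, or r = 0.66 and 0.64 without 2 joints). Without Lyz2 these r were 0.56 and 0.40 (permutation adjusted p = 0.0609 and 0.286; rho = 0.56 and 0.56, permutation adjusted p = 0.0489 and 0.0335). Tlr8 had r = 0.62 with the full macrophage list (rho = 0.56, permutation adjusted p = 0.0358 and 0.0427), which was 0.39 without 2 joints and so rests on MSC replicate 1 and STING-MSC replicate 3. Leaving Lyz2 out of that list gave r = 0.34 for Tlr8 (rho = 0.28, permutation adjusted p = 0.297 and 0.351). With the B cell list Tlr8 had r = 0.57 (rho = 0.59, permutation adjusted p = 0.0797 and 0.0427, r = 0.61 without 2 joints). The lists come from the same libraries as the genes, and the part of tissue makeup in these values was not tested.

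**Figure D4:**
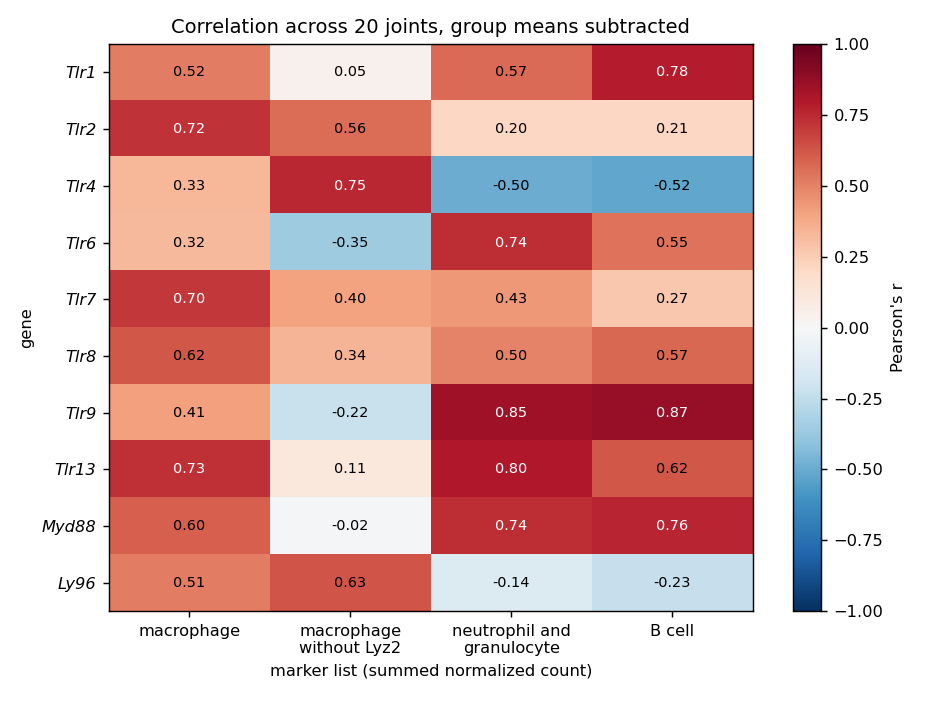
Pearson's r across 20 joints, group means subtracted, between each of the 10 genes (y axis) and the summed normalized count of 4 marker lists (x axis), with the value printed in each cell. Tlr6, Tlr9, Tlr13 and Myd88 have r of 0.74 to 0.85 with neutrophil markers, where Tlr4 has -0.50.

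Among the 10 genes, the highest r across joints (group means subtracted, n = 20, given with no test) were 0.90 between Tlr1 and Myd88, 0.78 between Tlr9 and Myd88, 0.78 between Tlr1 and Tlr9, and 0.76 between Tlr2 and Ly96. The lowest was -0.60 between Tlr4 and Tlr6, and Tlr4 had r = 0.60 with Ly96. Of 13174 genes with a mean normalized count of at least 50, those most like Tlr2 across joints were H13 (r = 0.84), Tor3a (r = 0.83) and Arf3 (r = 0.83). Tor3a was also the gene most like Ly96 (r = 0.89), followed by Cxcl16 (r = 0.81) and Cyp51 (r = 0.80). Those most like Tlr8 were Pld4 (r = 0.84), Casp1 (r = 0.82) and Rassf4 (r = 0.79), and most like Tlr13 were Lrrk2 (r = 0.95), Ms4a6c (r = 0.92) and Rnpep (r = 0.91). Tlr9 was most like Rasgrp1 (r = 0.96), Hhex (r = 0.95) and Blk (r = 0.94), and Myd88 like Ing1 (r = 0.93) and Nipsnap3b (r = 0.92). For Tlr1 these were Zc3h12d (r = 0.91), Myd88 (r = 0.90) and Lpxn (r = 0.90), for Tlr4 Pla2g2e (r = 0.94), Sema3d (r = 0.93) and Zbtb7c (r = 0.93), for Tlr6 Tpm3-rs7 (r = 0.92), Zfp58 (r = 0.91) and Pimreg (r = 0.88), and for Tlr7 Srebf2 (r = 0.95), Os9 (r = 0.92) and Ptgir (r = 0.91).

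Since neutrophil markers had higher values in the cell-injected groups, the comparisons were repeated with each joint's marker level as a covariate, again chosen after seeing the data. Of the 12 neutrophil markers, 9 were higher in MSC, 3 in TLR3-MSC and 10 in STING-MSC than in CTRL at an unadjusted limma p of at most 0.05, where 5.64%, 2.68% and 6.54% of all genes were, with no marker past an FDR of 0.05, and of the 10 macrophage markers 1, 0 and 1 were. With the neutrophil level as covariate, Tlr2 in MSC against CTRL was 0.55 (SE 0.20; limma FDR 0.366), Tlr2 in STING-MSC against MSC was -0.49 (SE 0.16; limma FDR 0.446) and Tlr8 in TLR3-MSC against CTRL was 0.29 (SE 0.10; limma FDR 0.597), each at an unadjusted p below 0.05. With that covariate Myd88 in MSC against CTRL was 0.07 (SE 0.09; limma FDR 0.738), and Tlr13 in STING-MSC against CTRL was 0.13 (SE 0.09; limma FDR 0.715). Tlr8 was 0.17 in MSC (limma FDR 0.506) and 0.24 in STING-MSC (limma FDR 0.681), both above an unadjusted p of 0.05, as were these values of Myd88 and Tlr13. Tlr9, which had no unadjusted p at or below 0.05 in the fit with no covariate, was with it at -0.65 in MSC (SE 0.15; FDR 0.366), -0.28 in TLR3-MSC (SE 0.13; FDR 0.597) and -0.37 in STING-MSC (SE 0.15; FDR 0.681) against CTRL, each at an unadjusted p below 0.05. Tlr9 was also at 0.28 in STING-MSC (SE 0.12; FDR 0.581) and 0.37 in TLR3-MSC (SE 0.13; FDR 0.857) against MSC, and Tlr1 at -0.33 in TLR3-MSC against CTRL (SE 0.16; FDR 0.597) and Tlr13 at 0.20 in STING-MSC against MSC (SE 0.07; FDR 0.493), all gained at an unadjusted p below 0.05 with the neutrophil level.

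With the full macrophage list as covariate, Tlr2 was 0.35 in MSC against CTRL (SE 0.14; limma FDR 0.761), Tlr8 was 0.26 in TLR3-MSC (limma FDR 1.00) and 0.24 in STING-MSC (limma FDR 0.401), all at an unadjusted p below 0.05, while Tlr13 was 0.19 in STING-MSC (limma FDR 0.412) and Myd88 was 0.15 in MSC (limma FDR 0.774). This covariate brought Tlr13 in STING-MSC against MSC (0.20, SE 0.08; limma FDR 0.736) and Tlr7 in MSC against CTRL (-0.33, SE 0.14; limma FDR 0.761) below an unadjusted p of 0.05. With the macrophage list without Lyz2, whose mean was 50247 ± 6848 in CTRL, 50621 ± 7768 in MSC, 51697 ± 3243 in TLR3-MSC and 50095 ± 6591 in STING-MSC (SD, n = 5 each), the values were close to those with no covariate: 0.65 for Tlr2 in MSC (limma FDR 0.120), 0.37 for Tlr8 and 0.39 for Tlr13 in STING-MSC (limma FDR 0.236 and 0.249), and 0.30 for Myd88 in MSC (limma FDR 0.361). Tlr2 in TLR3-MSC against MSC was -0.34 with it (SE 0.14; limma FDR 0.986), at an unadjusted p below 0.05. No FDR fell to 0.05 or below for these genes in any of the 3 fits. Over 32 alternative fits, the covariates included, Tlr8 in MSC against CTRL lay between 0.17 and 0.37. It lost its unadjusted p of 0.05 in 2 of them. Tlr2 in TLR3-MSC against CTRL lay between 0.12 and 0.43 and lost it in 15, including those with the neutrophil and the full macrophage level. The marker sums could themselves differ with treatment, and which of the fits describes the joints better was not tested.

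**Figure D5:**
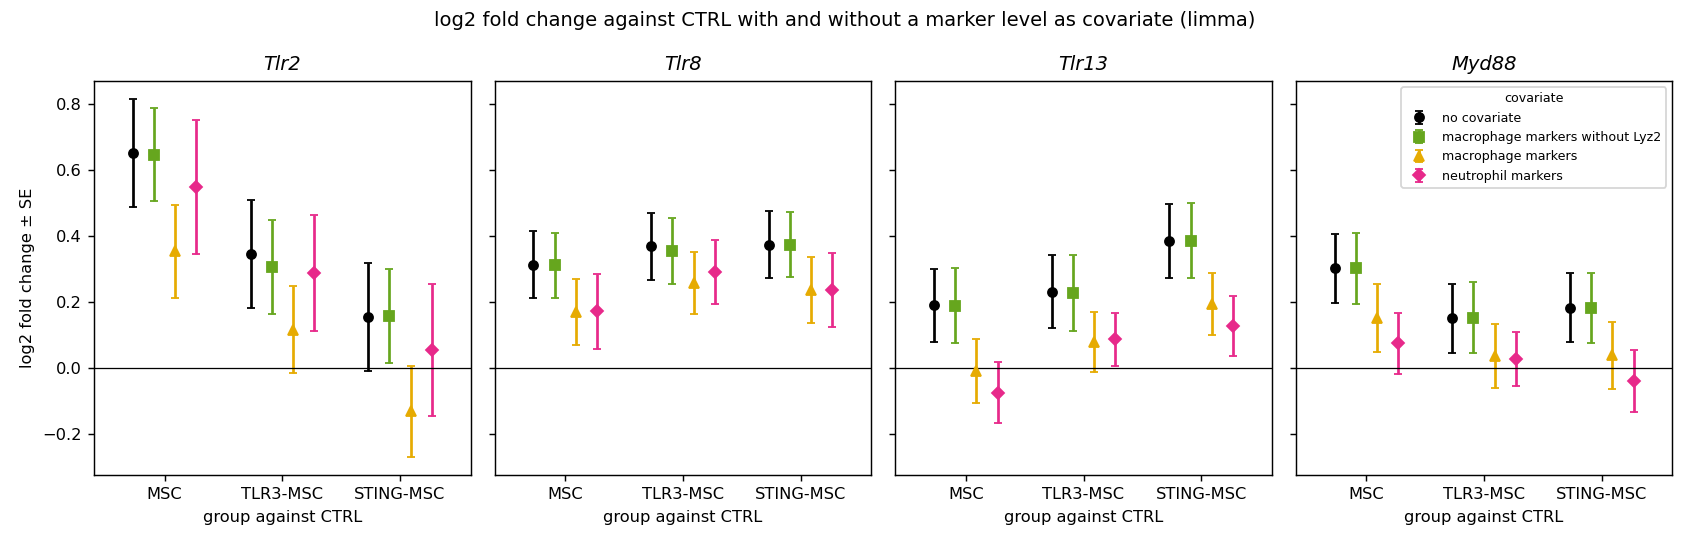
log2 fold change against CTRL ± SE (y axis) of Tlr2, Tlr8, Tlr13 and Myd88 in MSC, TLR3-MSC and STING-MSC (x axis), from limma with no covariate and with 3 marker levels as covariate (marker shapes). The values of Myd88 lie between -0.04 and 0.07 with the neutrophil level as covariate, while Tlr2 in MSC stays at 0.35 or above in the 4 fits.

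Of the wider Toll-like receptor pathway, 76 other genes were tested in 8 lists, and none passed an FDR of 0.05 in any pairwise comparison. At an unadjusted limma p of at most 0.05, 13 were higher and 2 lower in MSC than in CTRL, 3 higher and 0 lower in TLR3-MSC, and 7 higher and 3 lower in STING-MSC. These were 19.7%, 3.95% and 13.2% of the 76 genes, beside 8.55%, 3.58% and 12.2% of all genes, so the shares in the stimulated groups were near the background. Their median log2 fold change was 0.06, 0.04 and 0.08 in these comparisons, beside -0.04, -0.01 and 0.01 over all genes. Against MSC, 1 was higher and 6 lower in TLR3-MSC, and 4 higher and 3 lower in STING-MSC, or 9.21% of the 76 in each comparison, beside 3.88% and 4.94% of all genes.

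Among the receptors outside the set (Tlr3, Tlr5, Tlr11 and Tlr12), Tlr5, the flagellin receptor, was higher at that p in TLR3-MSC (0.42, SE 0.14; limma FDR 1.00) and STING-MSC (0.39, SE 0.14; limma FDR 0.345) than in CTRL, with 3 of 5 joints above every CTRL joint in each. Of the 19 adaptors and kinases, 4 were higher and 1 lower in MSC (Ikbkb, Irak2, Irak4 and Ticam2, and Tab1), 2 were higher in TLR3-MSC (Irak3 and Irak4) and 1 in STING-MSC (Ikbkb). Tab1, which helps to activate the kinase TAK1 below MyD88, was at -0.28 in MSC against CTRL (SE 0.09; limma FDR 0.3096). Against MSC it was at 0.31 in TLR3-MSC (limma FDR 0.978) and 0.37 in STING-MSC (limma FDR 0.539). These Tab1 values were -0.26, 0.29 and 0.36 without MSC replicate 5. Of the 10 genes listed as inhibitors, Nfkbia and Nfkbiz were higher in MSC, Irak3 in TLR3-MSC and Rnf216 in STING-MSC. Whether the listed genes inhibited or aided signalling in these joints was not tested. Nfkbia, the NF-kB inhibitor that NF-kB itself induces, was at 0.36 in MSC against CTRL (SE 0.11; limma FDR 0.322), -0.02 in TLR3-MSC and 0.02 in STING-MSC, and its MSC value was 0.43 without MSC replicate 5.

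Of the 12 induced targets, Acod1 and Il1b were higher in MSC than in CTRL at that p, and none in the stimulated groups. Il1b, the cytokine gene, had 640.4, 471, 456, 487 and 693 normalized counts in CTRL and 932, 775, 1639, 1349 and 726 in MSC. Every MSC joint was above every CTRL joint, a separation in this direction that 0.737% of all genes had. Its log2 fold change in MSC against CTRL was 0.93 (SE 0.20; limma FDR 0.104). It was 0.03 in TLR3-MSC and 0.11 in STING-MSC against CTRL, and -0.90 (limma FDR 0.633) and -0.81 (limma FDR 0.548) in the same order against MSC. The 3 Il1b differences from or to MSC were 1.05, -1.03 and -0.94 without MSC replicate 5. Of the 10 genes listed as endogenous ligands, Lcn2, S100a8 and S100a9 were higher in MSC and in STING-MSC, and Bgn was lower in STING-MSC. The listing does not establish that each of them, Lcn2 included, is a ligand, and binding was not tested. S100a8 and S100a9, which bind TLR4, are also in the neutrophil marker list, and S100a8 was at 0.65 in MSC, 0.37 in TLR3-MSC and 0.62 in STING-MSC against CTRL (SE 0.20 each; limma FDR 0.319, 1.00 and 0.310), the MSC value being 0.74 without MSC replicate 5. Of the 8 transcription factors, Irf3 and Rel were higher in MSC and Irf3 in STING-MSC, of the 9 accessory proteins Cd180 was lower in MSC and Tril in STING-MSC, and of the 5 proteases that process endosomal receptors Ctsk was lower in STING-MSC. Rel, an NF-kB subunit, was at 0.43 in MSC, 0.16 in TLR3-MSC and 0.18 in STING-MSC against CTRL (SE 0.12 each; limma FDR 0.289, 1.00 and 0.555), and at 0.42 in MSC without MSC replicate 5. Tril, a TLR4 accessory protein, was at -0.59, -0.23 and -0.72 in the same order (SE 0.33 each; limma FDR 0.647, 1.00 and 0.394), and at -0.79 in MSC without MSC replicate 5, then at an unadjusted p below 0.05. Ctsk, the osteoclast protease cathepsin K, was at -0.45, 0.09 and -0.78 (SE 0.36 each; limma FDR 0.717, 1.00 and 0.395), and at -0.37 in MSC without MSC replicate 5. MSC and CTRL joints are shared between these comparisons, so the values are given side by side.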

How the data were processed

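Bulk poly-A RNA of 20 knee joints (4 groups of 5 mice) was sequenced with 150-base paired reads. According to the labels and methods, reads were aligned with STAR 2.7.3a to GRCm39 and counted per gene with HTSeq on Ensembl 108 in Partek Flow 10.0. The low-count filter and use of strand are not given in the sources used here. The deposited values are counts that the authors divided by a DESeq2 median-ratio size factor for each joint, a normalized signal. Since the low values are whole multiples of the value of 1 read, reads were recovered (tolerance 0.1 reads; 99.8% to 99.9% of values came out whole), giving 27955496 to 52529972 reads per joint.

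The main test was limma 3.58.1 (R 4.3.3, trend) on log2(normalized count + 1) over all 20 joints, adjusted by Benjamini-Hochberg over 14793 genes with a mean of at least 5 (all of them), threshold 0.05. edgeR 4.0.16 and DESeq2 1.42.0 on the recovered reads, a replicate block, leaving out each joint, quantile normalization, fitting the compared groups alone, pseudocounts of 0.5 and 5, and a minimum mean of 20 or none were alternatives. Fold changes are on the log2(normalized count + 1) scale. Exact permutation tests were two-sided, and correlations used 100000 permutations within groups. The scripts were tested on simulated data. Exon lengths came from GENCODE vM39 on GRCm39.

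The 10 genes are named with each level. A fold change is given wherever the unadjusted p is at most 0.05, and otherwise in the comparison of smallest p; other values are beside them for comparison. The genes, the gene lists and the marker lists were chosen with earlier results of these data known. From each pathway list, the gene with the smallest p over the 4 groups is given with values; the other list genes at an unadjusted p of at most 0.05 are named after their values were seen. Same-numbered joints came from different mice, and their deviations from the group means correlated at -0.66 to 0.46, so the numbers do not pair the joints. The 3 genes most like each of the 10 across joints were to be named, and 1 of them is not reported here.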

Additional observations from a re-analysis of the deposited data

Results flagged for a closer look

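Tlr4 in CTRL replicate 4 was far from the other joints of its group, at 1094.1 normalized counts against 807 to 885 in the other 4, a gap of 0.729 of the group's range where 0.71 is the critical value of Dixon's test for 5 values. Of the 40 sets of 5 joints tested (10 genes in 4 groups), this was the 1 found, and chance alone marks about 1 in 20. Ly96, the partner of Tlr4, also had its highest CTRL value in that joint (176), and Tlr9 its lowest (289.5). That joint also had the highest summed synovial fibroblast markers of the 20 (558900 normalized counts), and their part in the Tlr4 level was not tested.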

How the results depend on the processing

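The numbers of genes of the 10 with an unadjusted p of at most 0.05 stayed within 1.5 times the main number under pseudocounts of 0.5 and 5, no filter, a minimum mean of 20, quantile normalization, edgeR, DESeq2 and the replicate block, in all 8 comparisons. Fitting only the groups compared gave 1 (Tlr2) for TLR3-MSC against MSC in place of 0. Covariates, added after seeing the data, moved more. With the macrophage level the numbers were 1 for TLR3-MSC, 1 for STING-MSC and 1 for all injected groups against CTRL, 2 for STING-MSC against MSC and 1 over the 4 groups. With the neutrophil level they were 1 for STING-MSC and 2 for all injected groups against CTRL, 3 for STING-MSC against MSC and 1 for TLR3-MSC against MSC. Without Lyz2 the macrophage level gave 1 for TLR3-MSC against MSC.

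Leaving out 1 joint gave 1 to 3 for TLR3-MSC against CTRL, 1 to 2 for STING-MSC against MSC, 0 to 1 for TLR3-MSC against MSC (Tlr2, without MSC replicate 5, TLR3-MSC replicate 5 or STING-MSC replicate 3), 0 to 1 for STING-MSC against TLR3-MSC, and 2 to 4 for all injected groups against CTRL (2 without CTRL replicate 5). The direction of Ly96 in TLR3-MSC against CTRL (-0.02) turned under quantile normalization (0.0138) and the neutrophil covariate (0.0201), and ranged from -0.137 to 0.0886 without 1 joint. Tlr6 in STING-MSC against CTRL turned to -0.0946 with the neutrophil covariate. Other named directions held. Tlr4 in STING-MSC against TLR3-MSC fell below an unadjusted p of 0.05 without MSC replicate 4 (limma FDR 0.877), and its value went from -0.25 to -0.13 without STING-MSC replicate 5.

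The replicate block moved TLR3-MSC against CTRL from 2 to 3 genes, left the other numbers as they were (3 for MSC, 2 for STING-MSC and 4 for all injected groups against CTRL, 1, 0 and 0 between injected groups, 3 over the 4 groups) and changed no other call. With 5 joints a group and SE of 0.10 to 0.22, small log2 differences could not be seen. Cages and RNA batches were not given in the labels and were not tested. The deposited column names carry a prefix that is the same within a group and differs between groups, and its meaning is not given. Any unit it marks could not be told apart from treatment.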
